A study of Mus musculus with 6 samples.

Results

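Aminoacyl-tRNA synthetases are the enzymes that load each amino acid onto its matching tRNA, the step that lets the ribosome read the genetic code. They were taken here by gene symbol: every probe set on the array whose annotated symbol was that of a cytosolic synthetase (a 1-letter amino acid code followed by ars, with Eprs, Farsa and Farsb) or of a mitochondrial synthetase (the same with the suffix 2). The rule used no measured value. It found 35 genes with 72 probe sets, of 18193 named genes on the array. Of these genes 19 were cytosolic, with 40 probe sets, and 16 were mitochondrial, with 32. A signal filter kept 61 of the 72 probe sets, and 33 of the 35 genes could be tested. Aars2 and Mars2 (mitochondrial alanine and methionine enzymes) had no probe set above the filter.

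The samples were mouse embryoid bodies, aggregates in which embryonic stem cells differentiate, made from the D3 stem cell line and sampled at 10 days. All bodies held gelatin-coated microspheres. In 3 control samples the microspheres carried CellTracker Red dye, and in 3 samples they carried retinoic acid (RA), the vitamin A metabolite that switches genes on through retinoic acid receptors. Each sample was hybridized to 1 Affymetrix array, and all come from a single cell line. The labels call the samples triplicates without saying that they were separate cultures, so each p-value covers only the spread among these 6 samples, and that spread may be technical.

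Every cell that makes protein needs a full set of synthetases. Most mammalian genes of this family encode either the cytosolic or the mitochondrial enzyme, while Gars and Kars encode both forms of the glycine and lysine enzymes. The enzymes fall into class I and class II by the fold of their catalytic domain. Several cytosolic enzymes sit together in a multisynthetase complex held by the scaffold proteins Aimp1, Aimp2 and Eef1e1. When amino acids run short, uncharged tRNA activates the kinase Eif2ak4 (GCN2), and the transcription factor Atf4 then raises many cytosolic synthetase genes together with amino acid transporters and synthesis enzymes.

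With RA, 8 of 19 cytosolic synthetases were higher and 0 were lower. They were Iars, Nars, Farsb, Gars, Kars, Sars, Tars and Lars, and their rises ran from 1.28 to 1.54 times. Of 14 tested mitochondrial synthetases 1 was higher and 0 were lower. That gene, Yars2, encodes the mitochondrial tyrosine enzyme, and its rise of 2.52 times was the largest of the family. A gene is called here when its limma p-value, after Benjamini-Hochberg adjustment over 13608 genes, was under 0.05. Over all genes tested, 14.3% were called higher and 15.6% lower, 30.0% in all. With limma and no adjustment, at p under 0.05, 9 cytosolic genes were higher and 0 lower, and 2 mitochondrial genes were higher and 1 (Sars2) lower. The median change (RA minus control, log2) was 0.26 over the cytosolic genes, 0.12 over the mitochondrial genes and 0.01 over all genes tested. The deposited arrays did not share a common scale: their mean intensity, with 2% trimmed at each end, ran from 108 to 191. Without scaling, 72.9% of all calls were higher against 47.8% with the quantile normalization used here, the median of all genes was 0.26, and the cytosolic and mitochondrial medians lay 0.34 and 0.17 above it. Without control array 3 the cytosolic median was 0.10, with 9 genes called higher, and the mitochondrial median was 0.18 without that array and 0.02 without control array 1. In whole bodies, a change in the share of a cell type cannot be told apart from a change in RNA per cell.

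The 3 RA arrays all lay above the 3 control arrays for 9 of 19 cytosolic genes and 3 of 14 mitochondrial genes, against 21.8% of all genes tested. All 3 RA arrays lay below the controls for 0 cytosolic and 0 mitochondrial genes, against 22.2% of all genes. The mitochondrial probe sets were measured less precisely: the median standard error of the change was 0.17 on the log2 scale, against 0.10 for the cytosolic genes. It was 0.18 over all genes tested, so the cytosolic genes were the more precise group. The median log2 levels were 9.65 for cytosolic genes, 7.50 for mitochondrial genes and 7.66 for all genes. The shares of calls over all genes are not matched for level or precision. Whether the share of called genes differed between the cytosolic and mitochondrial genes was not tested.

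**Figure D1:**
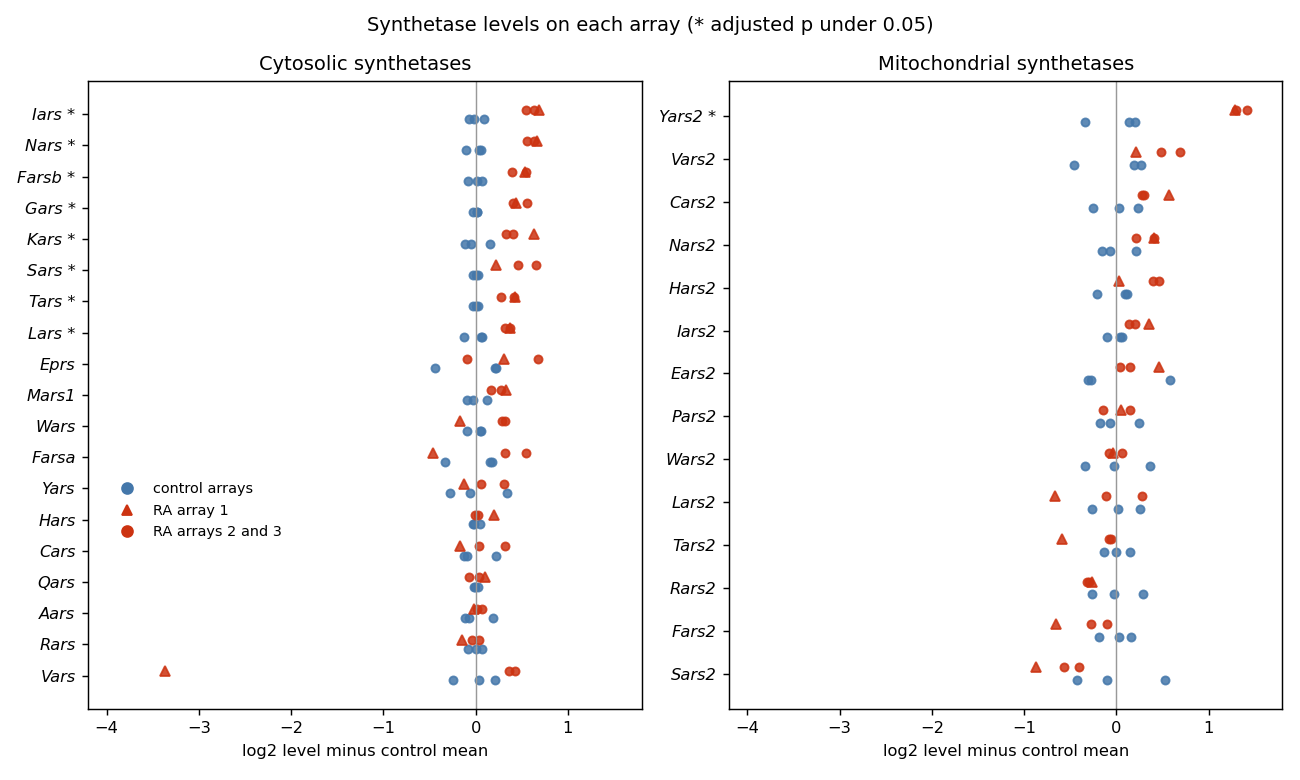
Log2 level on each array minus the mean of the control arrays, for the tested cytosolic (left) and mitochondrial (right) synthetase genes, with control arrays in blue, RA array 1 as red triangles and RA arrays 2 and 3 as red circles. The RA arrays stand to the right of all control arrays for 9 cytosolic and 3 mitochondrial genes, Yars2 moves furthest right, and Vars has 1 low point, on RA array 1.

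The RNA levels of cell type markers differed between the groups. Pluripotent and epiblast markers were called higher for 9 of 11 genes and lower for 1, and their summed level (linear, after normalization) was 3114 to 3702 in controls and 16199 to 16627 with RA. Heart muscle markers were lower for 7 of 8 genes (summed 12504 to 18919 in controls, 433 to 502 with RA), and blood markers for 4 of 6 (15303 to 17413, and 451 to 489). Liver-type and visceral endoderm markers were lower for 6 of 8 genes and higher for 2 (26046 to 28571, and 7700 to 8914). Mesenchyme markers were lower for 6 of 7 and higher for 1 (16472 to 19254, and 2761 to 2962), and neural markers were higher for 3 of 6 (436 to 658, and 2317 to 2784). Proliferation markers were higher for 4 of 7 and lower for 0 (11421 to 12797, and 15054 to 15449). No marker was listed at 0. With RA, 4 heart, 1 blood and 1 liver-type marker had means below the signal filter, as did 1 liver-type, 1 mesenchyme and 1 neural marker in controls. The summed level of the 19 cytosolic synthetases was 14875 to 16058 in controls and 18161 to 18873 with RA. That of the 14 mitochondrial synthetases was 2347 to 2587 in controls and 2636 to 2838 with RA, also without overlap. This mitochondrial sum includes Yars2, which lay at log2 levels of 7.34 to 7.88 in controls and 8.96 to 9.10 with RA. A sum without Yars2 was not computed, so the gap does not show a rise across the mitochondrial genes. The part of the marker shifts in the changes of the synthetases and of the related genes was not tested.

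The promoters of 26 of the 35 genes were matched in RefSeq (GRCm38.p6, windows of 250 bases before and 50 after the start). Cars, Hars, Hars2, Lars, Nars, Pars2, Rars, Vars and Wars were not matched. The matched windows were searched on both strands for 4 short motifs. The letters TGATGCAA, a core of the C/EBP-ATF response element through which Atf4 acts, occurred in 4 of 12 cytosolic genes and 0 of 14 mitochondrial genes, and in 0.895% of all 32851 windows. The E-box CACGTG, the site of Myc-family factors among others, occurred in 4 cytosolic genes and 1 mitochondrial gene, and in 7.15% of all windows. The ETS core CCGGAAGT occurred in 2 cytosolic genes and 1 mitochondrial gene (3.89% of windows), and the CRE core TGACGTCA in 0 of either (1.79% of windows). The median share of G and C bases was 57.7% in the members' windows and 52.7% in all windows, and the shares over all windows were not matched for this. None of these motifs overlapped another in the members' windows. These matches describe letters in a window and not bound sites, and the motifs were chosen after the changes were known. The 4 promoters with TGATGCAA (Iars, Tars, Aars, Yars) are shown because they hold the same motif while their genes gave different values, and the Yars2 promoter because that gene changed most. Each reads 5′ to 3′ on the gene's strand, with a match to the response element core or the E-box in capitals (the core appears as TTGCATCA where it lies on the opposite strand). They lie at chr13:49681880-49682179 (plus strand, Iars), chr15:11399609-11399908 (minus, Tars), chr8:111033592-111033891 (plus, Aars), chr4:129189653-129189952 (plus, Yars) and chr16:16302715-16303014 (plus, Yars2).
Iars: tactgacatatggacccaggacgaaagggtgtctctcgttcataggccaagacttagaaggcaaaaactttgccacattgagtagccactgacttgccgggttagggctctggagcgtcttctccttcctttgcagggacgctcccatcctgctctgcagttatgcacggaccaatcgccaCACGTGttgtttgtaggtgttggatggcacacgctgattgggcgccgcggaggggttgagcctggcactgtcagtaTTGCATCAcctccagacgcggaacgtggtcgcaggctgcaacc
Tars: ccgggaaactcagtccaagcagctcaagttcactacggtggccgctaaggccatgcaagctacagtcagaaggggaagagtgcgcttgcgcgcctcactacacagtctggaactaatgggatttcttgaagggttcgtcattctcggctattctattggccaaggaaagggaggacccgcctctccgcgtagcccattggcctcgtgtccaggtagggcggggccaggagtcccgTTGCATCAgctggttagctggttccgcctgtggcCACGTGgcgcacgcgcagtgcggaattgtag
Aars: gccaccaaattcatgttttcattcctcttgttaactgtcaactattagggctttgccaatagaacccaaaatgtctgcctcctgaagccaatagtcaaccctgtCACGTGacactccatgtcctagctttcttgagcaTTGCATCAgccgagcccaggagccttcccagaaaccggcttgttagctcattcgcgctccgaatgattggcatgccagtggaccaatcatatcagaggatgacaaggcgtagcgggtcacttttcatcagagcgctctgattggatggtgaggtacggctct
Yars: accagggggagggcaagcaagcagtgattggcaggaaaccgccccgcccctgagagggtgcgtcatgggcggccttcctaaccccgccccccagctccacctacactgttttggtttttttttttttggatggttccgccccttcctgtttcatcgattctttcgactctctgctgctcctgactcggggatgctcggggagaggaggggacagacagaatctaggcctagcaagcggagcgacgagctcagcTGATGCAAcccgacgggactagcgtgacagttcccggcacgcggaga
Yars2: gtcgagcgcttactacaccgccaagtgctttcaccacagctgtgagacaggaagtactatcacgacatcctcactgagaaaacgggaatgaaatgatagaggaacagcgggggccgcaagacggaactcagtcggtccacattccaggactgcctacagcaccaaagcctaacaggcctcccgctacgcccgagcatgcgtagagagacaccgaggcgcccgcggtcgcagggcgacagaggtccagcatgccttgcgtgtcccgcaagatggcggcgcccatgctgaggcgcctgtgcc

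Of the 4 genes with the response element core, Iars and Tars were called higher, while Aars and Yars had changes of 0.02 ± 0.09 and 0.08 ± 0.17 (log2, SE). Positions are given for the leftmost printed base of each match. It lay 112 bases before the start in Aars and 15 before it in Tars, and at bases 8 and 4 counted from the start in Iars and Yars. Of the 7 called genes with a promoter in the table, 2 held the core, as did 2 of 17 genes that were tested and not called. The E-box stood in 3 of these 7 called genes, Iars, Tars and Farsb, and in 2 of the 17 not called. The Yars2 window held 0 of the 4 motifs.

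The isoleucine enzyme gene Iars lay at log2 levels of 10.04, 9.93 and 9.88 on control arrays 1, 2 and 3 and at 10.64, 10.58 and 10.50 on the RA arrays. The groups stood well apart, and the change was 0.62 ± 0.08 (RA minus control, log2, SE of the fit, limma adjusted p = 0.000178). A second Iars probe set gave 0.60 and was also called. Nars, which charges asparagine, lay at 9.89, 9.75 and 9.91 in controls and at 10.51, 10.40 and 10.48 with RA. Its change of 0.62 ± 0.08 (limma adjusted p = 0.000199) was matched by a second called probe set at 0.55. Among all genes tested the changes of Iars and Nars stood at the 90.5 and 90.3 percentiles.

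Gars and Kars supply glycine and lysine enzymes to both the cytosol and the mitochondria. Gars lay at 9.86, 9.90 and 9.91 on the control arrays and at 10.33, 10.29 and 10.44 on the RA arrays. The control values were nearly equal, and the change was 0.47 ± 0.08 (limma adjusted p = 0.00116). Kars lay at 10.47, 10.20 and 10.26 in controls and at 10.94, 10.72 and 10.64 with RA. The groups did not overlap, and the change was 0.46 ± 0.10 (limma adjusted p = 0.00531). The Kars call was narrowly lost when the variance trend was left out of the limma fit (adjusted p = 0.0505).

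The phenylalanine enzyme is built from an alpha subunit, Farsa, and a beta subunit, Farsb. Farsb lay at 9.54, 9.48 and 9.40 in controls and at 10.01, 9.87 and 10.02 with RA, a change of 0.49 ± 0.09 (limma adjusted p = 0.00151). Its other 3 kept probe sets gave 0.27, 0.34 and 0.49, and none of them was called. Farsa lay at 8.14, 8.11 and 7.63 in controls and at 7.50, 8.50 and 8.27 with RA. These values overlap, with RA array 1 the lowest of all, and the change was 0.13 ± 0.24 (limma adjusted p = 0.728). The other kept Farsa probe sets gave 0.72 and -0.01, and neither was called. In the one at 0.72 all RA arrays lay above the controls (limma adjusted p = 0.0851 over probe sets). Whether the subunits differed in their change was not tested.

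Sars, Tars and Lars charge serine, threonine and leucine. Sars lay between 9.35 and 9.41 on the control arrays and at 9.61, 10.04 and 9.84 on the RA arrays, a change of 0.44 ± 0.11 (limma adjusted p = 0.0105). RA array 2 was the highest. The second Sars probe set gave 0.19 and was not called, and without RA array 2 it became the brightest, so that the change was 0.21 and the call was lost (adjusted p = 0.188). Tars lay between 9.23 and 9.28 in controls and at 9.68, 9.67 and 9.53 with RA, a change of 0.37 ± 0.09 (limma adjusted p = 0.00920). Lars lay at 9.18, 8.99 and 9.17 in controls and at 9.48, 9.49 and 9.43 with RA, a change of 0.35 ± 0.10 (limma adjusted p = 0.0160). The Lars call was lost without control array 2 (0.29, adjusted p = 0.0635) or RA array 2 (0.34, adjusted p = 0.0514). Without scaling, Tars and Lars gave 0.69 ± 0.29 and 0.67 ± 0.29 and did not pass (limma adjusted p = 0.0780 and 0.0942), and without the variance trend Lars and Sars did not (0.0584 and 0.0583).

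The remaining 11 cytosolic genes were not called. Mars1, the methionine enzyme, lay at 9.49, 9.43 and 9.65 in controls and at 9.85, 9.80 and 9.69 with RA. Its groups did not overlap, and the change of 0.26 ± 0.10 had a limma adjusted p of 0.0633. It passed when arrays were scaled to a common trimmed mean (0.29, adjusted p = 0.0348) and without control array 3 (0.32, adjusted p = 0.0302). Eprs, a single protein that charges both glutamate and proline, had overlapping arrays and a change of 0.30 ± 0.20 from its brightest probe set. Its other kept probe sets gave 0.27 and 0.43, and the one at 0.43 was called in the fit over probe sets (limma adjusted p = 0.0313). Without RA array 2 this probe set stood for Eprs, which was then called higher (0.48, limma adjusted p = 0.0296), and over the fits that left out arrays its change ran from 0.07 to 0.49.

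Several cytosolic genes gave changes close to 0 with small errors. Qars (glutamine) changed by 0.02 ± 0.08, Hars (histidine) by 0.07 ± 0.08, Aars (alanine) by 0.02 ± 0.09 and Rars (arginine) by -0.05 ± 0.08 (log2, SE). The control and RA arrays overlapped for each of these 4 genes. Rars lies on chromosome 11, where 320 of 1116 tested genes were lower, 72 were higher and the median change was -0.20. The less precise Wars (tryptophan), Yars (tyrosine) and Cars (cysteine) changed by 0.14 ± 0.15, 0.08 ± 0.17 and 0.06 ± 0.18. Aars had a second probe set at -0.33, in which RA array 1 lay 0.88 below the mean of the other RA arrays (log2).

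The valine enzyme gene Vars showed the widest spread. Its deposited intensities were 252, 204 and 180 on the control arrays and 8.33, 359 and 330 on the RA arrays. RA array 1 thus stood far below all other arrays while RA arrays 2 and 3 stood above the controls. The fitted change was -0.86 ± 0.77 (limma adjusted p = 0.443). Without RA array 1 it was 0.39 (limma adjusted p = 0.108), and without RA array 1 and control array 3 it was 0.50 and was called (adjusted p = 0.0435). On RA array 1 the Gapdh control probe sets, which report RNA integrity, gave a 3′ over 5′ ratio of 34.0, against 3.06 to 4.74 on the other arrays. The same ratio for actin was 3.35 to 4.24 on the control arrays and 4.35 to 7.42 on the RA arrays, without overlap (exact two-sided permutation p = 0.1, the smallest possible). Of the 61 kept synthetase probe sets, 8 read over 0.5 lower (log2) on RA array 1 than the mean of RA arrays 2 and 3, and 1 read over 0.5 higher. Over all kept probe sets these shares were 10.0% and 8.54%. The part of RNA integrity in the low Vars value and in the other changes was not tested. The same 8 cytosolic genes and Yars2 were called higher without RA array 1.

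**Figure D2:**
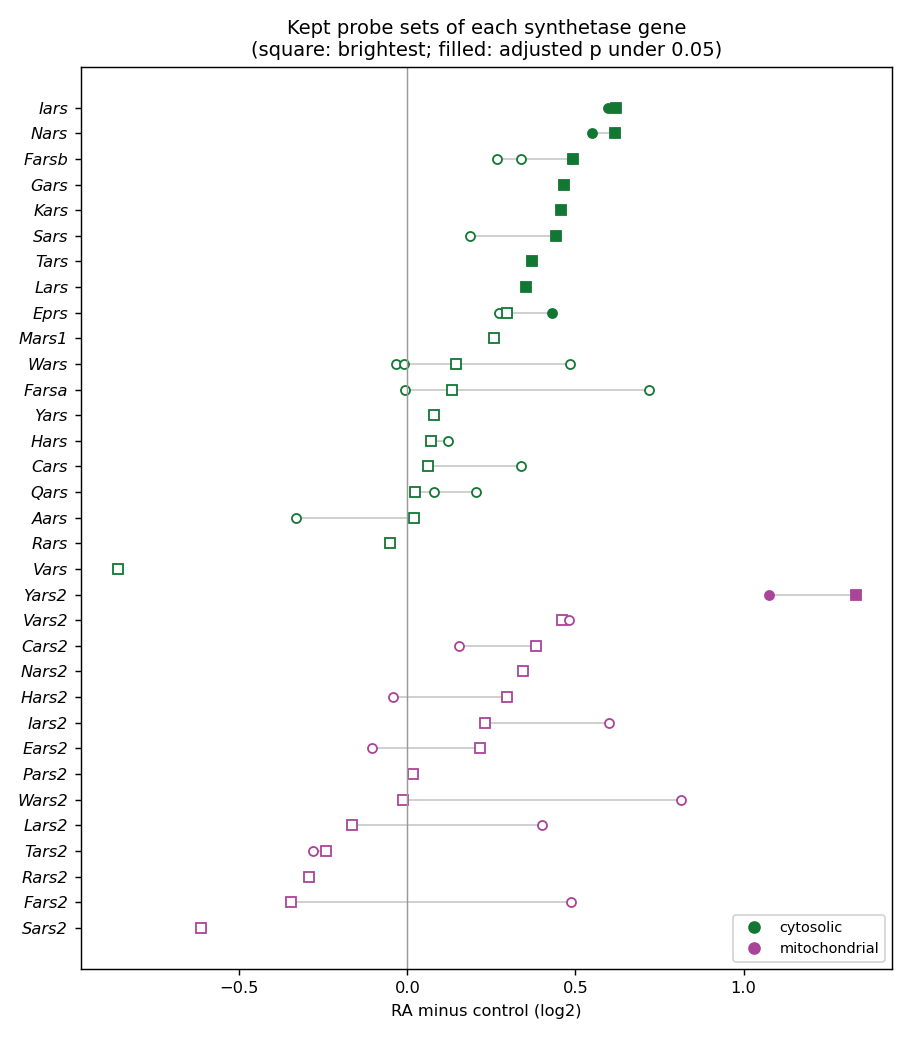
Change (RA minus control, log2) of every kept probe set of each tested synthetase gene, with cytosolic genes in green above and mitochondrial genes in purple below. Squares are the brightest probe set, which stands for the gene, and filled symbols had a limma adjusted p under 0.05 over all kept probe sets, which 13 did, all to the right of 0.

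In the fit over probe sets, 13 of the 61 kept synthetase probe sets were called higher and 0 lower, against 11.3% of all kept probe sets called higher. Of 21 genes with several kept probe sets, 8 had probe sets on both sides of 0. These were Aars, Wars and Farsa among cytosolic genes and Hars2, Ears2, Wars2, Lars2 and Fars2 among mitochondrial genes, and none of the 8 was called. Fars2 gave -0.34 from its brightest and 0.49 from its other probe set, and Wars2 gave -0.01 and 0.81.

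Yars2, the mitochondrial tyrosine enzyme, lay at 7.82, 7.88 and 7.34 on the control arrays and at 8.96, 9.10 and 8.98 on the RA arrays. All RA arrays were over 1 log2 unit above the highest control, and the change was 1.33 ± 0.15 (limma adjusted p = 6.03e-05). The second Yars2 probe set rose by 1.08 and was also called. The brightest carries the suffix x_at, which marks possible matches to other transcripts. The second carries a_at, used for several transcripts of the same gene. No Yars2 value remained when probe sets with the suffix s_at, x_at or a_at were left out. In every fit that left out arrays Yars2 was called, with changes from 1.16 to 1.43. The cytosolic counterpart Yars gave 0.08 ± 0.17, at 8.70, 8.08 and 8.30 in controls and 8.23, 8.66 and 8.41 with RA.

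None of the other 13 mitochondrial genes was called. Changes above 0 were measured for Vars2 (0.46 ± 0.27), Cars2 (0.38 ± 0.16), Nars2 (0.34 ± 0.17), Hars2 (0.30 ± 0.19), Iars2 (0.23 ± 0.14), Ears2 (0.22 ± 0.25) and Pars2 (0.02 ± 0.17). The RA arrays lay above all control arrays for Cars2 and Iars2. Changes below 0 were measured for Sars2 (-0.61 ± 0.24), Fars2 (-0.34 ± 0.18), Rars2 (-0.29 ± 0.14), Tars2 (-0.24 ± 0.17), Lars2 (-0.16 ± 0.26) and Wars2 (-0.01 ± 0.23). Sars2, the mitochondrial serine enzyme, lay at 7.48, 7.15 and 8.11 in controls and at 6.71, 7.18 and 7.01 with RA. Its groups overlapped through control array 2, and without that array it was called lower (-0.83, limma adjusted p = 0.0330). Without control array 3, Cars2 was called higher (0.50, adjusted p = 0.0478) and Rars2 lower (-0.43, adjusted p = 0.0381). Without scaling, Wars2 was called higher (0.99, limma adjusted p = 0.0141), from its other probe set.

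**Figure D3:**
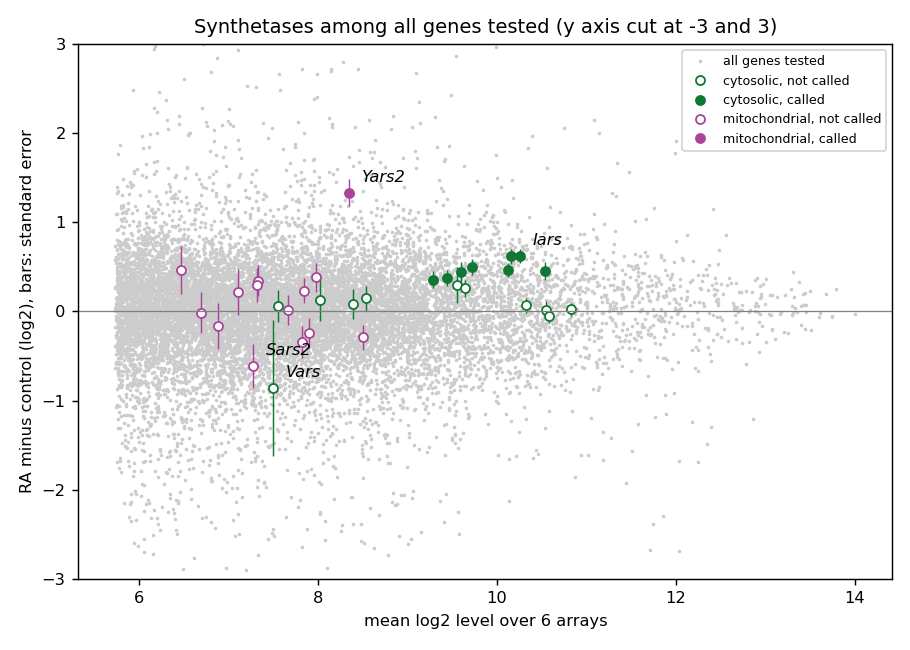
Change (RA minus control, log2, bars show the standard error) against the mean log2 level over the 6 arrays, for all 13608 genes tested (grey) and the 33 synthetase genes (cytosolic green, mitochondrial purple, filled where called). The called cytosolic genes form a narrow band between 0.35 and 0.62, and Yars2 lies above it at 1.33.

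For 13 pairs of a cytosolic and a mitochondrial gene for the same amino acid, the changes could be set side by side. In 6 pairs the difference between the genes did not overlap between the control and RA arrays. Of all single genes tested, 21.8% lay wholly above the controls with RA and 22.2% wholly below. The share over other pairs of genes was not computed. The change of the cytosolic gene exceeded that of the mitochondrial gene in 5 of the 6 pairs: by 1.06 for serine (Sars, Sars2), 0.84 for phenylalanine (Farsb, Fars2), 0.61 for threonine, 0.39 for isoleucine and 0.27 for asparagine. For tyrosine the mitochondrial gene changed more, with a cytosolic change minus mitochondrial change of -1.25. An exact two-sided permutation test gave p = 0.1 for each of these 6 pairs, the smallest that 3 against 3 arrays allow (0.217 after Benjamini-Hochberg adjustment over 13 pairs). In the 7 other pairs the arrays overlapped, and the cytosolic change minus the mitochondrial change was -0.23 for histidine, -0.32 for cysteine, -1.32 for valine and between 0.16 and 0.52 in the rest. Each gap rests on the brightest probe set. The other probe set of Fars2 gave 0.49, as large as the change of Farsb, and that of Iars2 gave 0.60 against 0.62 for Iars. The other kept probe sets of Lars2 and Wars2 gave 0.40 and 0.81, above Lars (0.35) and Wars (0.14). That of Tars2 gave -0.28, further below Tars. Farsa and Farsb were both paired with the same Fars2 values, so the 13 pairs were not all separate.

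By catalytic class, 6 of 9 cytosolic class II genes were called higher (Nars, Farsb, Gars, Kars, Sars, Tars) and 2 of 9 class I genes (Iars and Lars). Eprs joins a class I and a class II domain and is in neither count. The median changes were 0.44 and 0.08. Of the 7 tested enzymes of the multisynthetase complex 3 were called higher, Iars, Kars and Lars, while Eprs, Mars1, Qars and Rars were not. Of the 12 cytosolic genes outside it 5 were called higher. No difference between these groups was tested, and 14.3% of all genes tested were called higher.

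Of the 3 scaffold genes of the complex 2 were called higher, against 14.3% of all genes tested. Aimp2 lay at 9.83, 10.16 and 9.67 in controls and at 10.48, 10.39 and 10.41 with RA, a change of 0.55 ± 0.12 (limma adjusted p = 0.00391). Eef1e1, also known as p18, lay at 9.78, 9.66 and 9.31 in controls and at 10.02, 10.31 and 10.17 with RA (0.59 ± 0.13, adjusted p = 0.00434). The RA arrays lay above all controls for both genes. Aimp1 gave -0.08 ± 0.08 and was not called, and the difference between the scaffold genes was not tested.

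Of 11 relatives of the synthetases and enzymes that edit or amidate charged tRNA, 2 were higher and 1 was lower. The shares over all genes tested were 14.3% higher and 15.6% lower. Qrsl1, a subunit of the amidotransferase that makes mitochondrial glutaminyl-tRNA, was 1.46 times higher (limma adjusted p = 0.0212). Dtd1, which removes D-amino acids from tRNA, was 1.43 times higher (adjusted p = 0.0144), and Aarsd1, an editing relative of the alanine enzyme, was 1.46 times lower (adjusted p = 0.0102). Prorsd1 gave -0.33 ± 0.16 and was not called. Aarsd1 and Prorsd1 lie on chromosome 11, described above for Rars, and that chromosome's part in their values was not tested.

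Genes known as Atf4 targets outside the family moved more often up than down: of 34 tested 12 were higher and 2 lower, with a median change of 0.25. Among all genes tested, 14.3% were higher and 15.6% lower, with a median change of 0.01. The amino acid transporter genes Slc7a3, Slc7a5 and Slc38a2 were 6.94, 3.45 and 1.79 times higher (limma adjusted p at most 1.93e-05). Gpt2, a transaminase, was 1.49 times lower (adjusted p = 0.00273). Outside the naming rule, and chosen after its value was seen, asparagine synthetase (Asns) lay at 9.67, 9.56 and 9.49 in controls and at 10.30, 10.25 and 10.28 with RA (0.71 ± 0.08, adjusted p = 8.54e-05). The other lower target, named in the same way, was the stress factor Ddit3 (CHOP), 1.77 times lower (adjusted p = 0.00458). Atf4 itself lay at 9.58, 9.58 and 9.73 in controls and at 9.54, 9.29 and 9.52 with RA, a change of -0.18 ± 0.10 that was not called (adjusted p = 0.203), although all RA arrays lay below the controls. Its mRNA level need not follow its protein, which is regulated at translation.

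Among 13 tested sensors and regulators of this response 1 was higher and 1 lower, against 14.3% and 15.6% of all genes tested. Eif2ak3 (PERK), the kinase of the endoplasmic reticulum, was 1.49 times higher (limma adjusted p = 0.0181), and Eif2ak2 (PKR), which responds to double-stranded RNA, was 1.59 times lower (adjusted p = 0.0212). Eif2b3 and Eif2b5, subunits of the exchange factor of initiation factor eIF2, gave 0.36 ± 0.15 and 0.29 ± 0.13 and were not called. Eif2ak4, the sensor of uncharged tRNA, gave 0.03 ± 0.18.

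**Figure D4:**
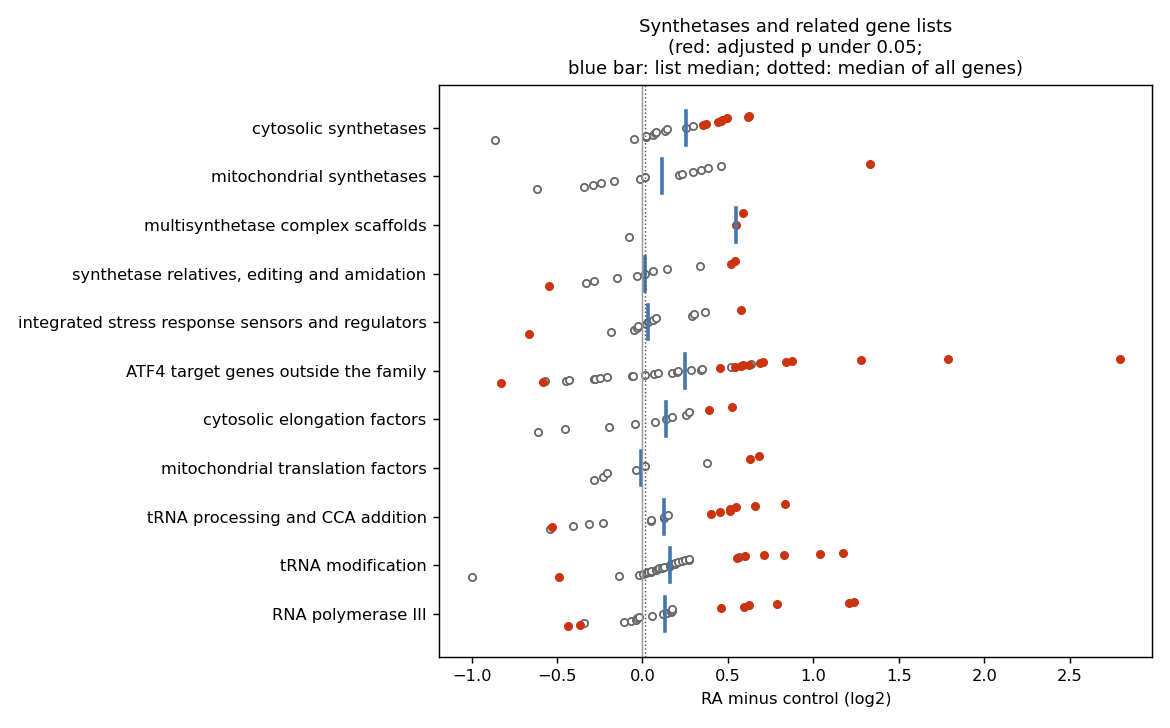
Change (RA minus control, log2) of every tested gene of the synthetase groups and of 9 related lists, red where the limma adjusted p was under 0.05, with a blue bar at each list's median and a dotted line at the median of all genes (0.01). The medians run from -0.01 for mitochondrial translation factors to 0.55 for the complex scaffolds, and the Atf4 targets Slc7a3 and Slc7a5 lie furthest right.

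Of 17 tested genes of tRNA processing 7 were higher and 1 lower (median 0.13), against 14.3% and 15.6% of all genes tested. The 7 included Xpot, the exporter of tRNA from the nucleus (1.43 times higher, limma adjusted p = 0.00111), and the RNase P subunits Rpp30 and Rpp14 (1.58 and 1.78 times, adjusted p = 0.00163 and 0.00165). The splicing endonuclease subunit Tsen34 was 1.44 times lower (adjusted p = 0.00391). The other 9 were not called. Of 31 tRNA modification genes 6 were higher, 1 was lower and 24 were not called (median 0.16), against 14.3% higher among all genes. Those higher included the pseudouridine synthase Pus7 (2.25 times higher), Trmt11 (2.05 times) and the methyltransferase Nsun2 (1.64 times; the largest adjusted p of the 3 was 0.000516). Trmt2a was 1.41 times lower (adjusted p = 0.0183).

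Of 20 genes of RNA polymerase III and its factors, which transcribe tRNA genes, 6 were higher and 2 lower (median 0.13). For this list and the 2 that follow, the shares over all genes tested were 14.3% higher and 15.6% lower. Polr3g was 2.35 times, Polr3e 2.31 times and Polr3a 1.73 times higher (limma adjusted p at most 0.000916), and Gtf3c1 was 1.35 times lower (adjusted p = 0.0162). Of 11 cytosolic elongation and termination factor genes 2 were higher and 0 lower, the termination factor genes Gspt1 and Etf1 (1.44 and 1.31 times, adjusted p = 0.00287 and 0.00338). Without adjustment 2 were higher and 2 lower in limma at p under 0.05. Eif5a and Eef2k gave -0.20 ± 0.09 and -0.45 ± 0.19. Of 8 mitochondrial translation factor genes 2 were higher and 0 lower, Gfm1 and Mtrf1l (1.55 and 1.61 times, adjusted p = 0.00315 and 0.0158). These counts were the same without adjustment, and Mtif2 and Tufm gave -0.28 ± 0.14 and -0.23 ± 0.13. Eif5a and Mtif2 also lie on chromosome 11.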

How the data were processed

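Total RNA of 6 samples was labelled as biotin cRNA and hybridized to 1 Affymetrix array each, per the labels' protocols. The deposited values are 1 linear intensity per probe set, made by the authors with GCOS default settings, per the labels; the algorithm behind the signal and the software version are not given in these sources. The median intensity ran from 41.4 to 65.5 and the mean, with 2% trimmed at each end, from 108 to 191 between arrays. The number of arrays limits the precision, and no depth applies. The members and gene lists were chosen with earlier results of these data known.

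From the deposited intensities, log2(intensity + 16) was quantile normalized between arrays, after 64 control probe sets were left out. The pseudocount understates the fold changes of dim genes. Probe sets whose mean fell under the 40th percentile (5.74 on the log2 scale) were dropped. The brightest remaining probe set with 1 symbol in the platform annotation stood for its gene (34945 probe sets had 1 symbol, 932 several, 9160 none, and 34741 of the named ones matched RefSeq). RA was tested against control in R 4.3.3 using limma 3.58.1 (lmFit, eBayes with a trend, two-sided, 13608 genes, Benjamini-Hochberg adjustment), and the same fit was run on 27022 probe sets. The procedure was tested on simulated data with independent noise and added changes larger than those of the called cytosolic genes. That test does not cover changes of their size. Groups came from the sample titles. Every synthetase gene is named, and of each related list up to 4 tested genes with the smallest p, at most 3 of 1 direction where both directions held a call. Alternatives covered the scaling, pseudocount, filter, choice of probe set, variance trend, replicate number as a block, and left-out arrays.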

Additional observations from a re-analysis of the deposited data

How the results depend on the processing

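The direction and side of the threshold of the 33 tested synthetase genes were unchanged in 504 values over the alternatives, while 36 changed sign, 9 lost a call and 6 gained one in the same direction. Of those that changed sign, Wars2 without scaling and Vars without RA array 1 and control array 3 were also called. Each gene that changed sign was uncalled with the settings of the report. Without scaling, 651 genes were called lower (1750 higher), 2 mitochondrial synthetases higher and 0 related genes lower, and Lars2, Rars and Wars2 gave 0.035, 0.32 and 0.99. The trimmed mean gave -0.013 for Cars, -0.057 for Pars2 and 0.016 for Rars. A pseudocount of 64 gave 0.53 for Wars2. With the mean of each gene's probe sets, 5 related genes were lower, and Aars, Fars2, Lars2 and Wars2 gave -0.15, 0.071, 0.12 and 0.40. Without probe sets with the suffix s_at, x_at or a_at, 0 mitochondrial synthetases were higher by limma's adjusted p (Yars2 had no probe set left). In that setting 6 of 17 tested cytosolic genes were higher (Sars also had none left). Farsb then gave 0.49 without a call (limma adjusted p = 0.257), and Aars, Hars2 and Wars gave -0.33, -0.042 and -0.035. Without the variance trend, 5 cytosolic synthetases were higher and 5 related genes lower. Leaving out each array in turn, or RA array 1 with control array 3, gave 7 to 9 cytosolic genes higher, 1 to 2 mitochondrial genes higher and 0 to 1 lower, 37 to 41 related genes higher and 5 to 9 lower, and 10 to 13 synthetase probe sets higher and 0 to 1 lower. Farsb, Gars, Iars, Kars, Nars, Tars and Yars2 were called in all 7 of these fits. Genes that changed sign in them ranged from -0.035 to 0.11 (Aars), -0.068 to 0.18 (Cars), -0.045 to 0.51 (Ears2), -0.074 to 0.43 (Farsa), -0.38 to 0.083 (Lars2), -0.072 to 0.14 (Pars2), -0.027 to 0.070 (Qars), -1.51 to 0.50 (Vars), -0.18 to 0.46 (Wars2) and -0.060 to 0.25 (Yars). With the replicate number as a block, 8 cytosolic synthetases and 1 mitochondrial synthetase were higher, among 1775 genes higher and 1949 lower. Between same-numbered arrays the correlations of deviations from the group mean were -0.085, -0.014 and -0.027. With so few arrays these cannot show whether such arrays shared a culture or batch, and the titles give only a replicate number. The cause of these differences was not tested, except where probe sets or arrays were fewer by construction. Signal over background is not known for these arrays.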
